A study of Mus musculus with 2 samples.

Results

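BCL2 family genes decide whether a stressed cell keeps its mitochondria intact or dies by apoptosis. The 10 genes described here were the rows of the deposited gene table named Bcl2, Bcl2l1, Mcl1, Bcl2a1a, Bcl2a1b, Bcl2a1d, Bax, Bak1, Bcl2l11 and Bid, out of 54751 gene rows. They were chosen by name, as 6 survival genes and 4 death genes, and all 10 were measured, meaning that their counts scaled to library size (CPM) averaged 1 or more over the 2 libraries, as did those of 12856 genes in all. The RNA came from wild-type myeloid-derived suppressor cells (MDSCs) grown from mouse bone marrow, immature cells of the neutrophil and monocyte lineages that can restrain T cells. One culture had received mrWNT2 (WNT2 is a secreted signalling protein of the WNT family) and the other vehicle, both on day 0 and day 3, and both were collected on day 6. Mouse strain, age and sex, the dose of mrWNT2 and the number of animals pooled are not given in the sources used here. The comparison asked what WNT2 does to gene expression in these cells.

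The family works as a set of opposing proteins on the outer mitochondrial membrane. Bax and Bak1 encode the effectors, which form pores that release cytochrome c and switch on caspases. Survival proteins such as those encoded by Bcl2, Bcl2l1 (BCL-XL), Mcl1 and the Bcl2a1 copies (A1) hold the effectors in check. BH3-only proteins such as BIM (Bcl2l11) and BID (Bid) bind the survival proteins or activate the effectors. In myeloid cells, MCL1 and A1 are short-lived proteins, neutrophils are known to depend on MCL1, and the A1 genes are known targets of NF-kB, a transcription factor of inflammatory signalling.

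Each group had 1 library, so no test was possible. The mrWNT2 library held 12621110 counts and the control library 13474453. The interval beside each ratio is the Clopper-Pearson one at 95%, computed from both counts. It covers counting error only and compares these 2 libraries, not the conditions. Single markers of myeloid, T and B cells were looked up, which do not tell MDSCs from other myeloid cells. The myeloid gene Itgam had 6070 counts in the mrWNT2 library and 6622 in the control library. The T cell gene Cd3e had 0 and 1, and the B cell genes Ms4a1 and Pax5 had 1 and 0, and 0 and 0. Other T, NK and B cell markers had more, with 263 and 270 counts for Nkg7, 27 and 40 for Cd79a, and 25 and 22 for Cd79b.

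The Bcl2a1 copies were 1.74-fold to 2.06-fold higher in the mrWNT2 library, and the other 7 members were within 1.5-fold. Of the 10 members, 3 were at least 1.5-fold higher and none was as far below control (0 of 10), where 7.62% and 7.02% of all 12856 measured genes lay past those folds. The members' median log2 ratio of mrWNT2 over control was 0.06, against 0.02 over all measured genes. Without the Bcl2a1 copies the median of the remaining 7 was 0.02. In bulk RNA, a change in how many cells express a gene and a change in RNA per cell cannot be told apart.

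Mouse A1 genes are recent copies of one another on chromosome 9, and the sequences directly upstream of them are shown because the 3 copies were higher together and because likeness between copies limits how well their reads can be told apart. The 180 bases before each gene's start in the deposited table were taken from RefSeq (GRCm38.p6) and are printed 5′ to 3′ on the gene's strand. Capitals mark bases that differ from, or are missing in, at least 1 of the other 2 copies within the aligned part.
Bcl2a1a: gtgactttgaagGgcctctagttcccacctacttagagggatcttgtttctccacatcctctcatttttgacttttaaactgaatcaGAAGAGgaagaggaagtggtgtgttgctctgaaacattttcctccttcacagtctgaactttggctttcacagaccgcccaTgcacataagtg
Bcl2a1b: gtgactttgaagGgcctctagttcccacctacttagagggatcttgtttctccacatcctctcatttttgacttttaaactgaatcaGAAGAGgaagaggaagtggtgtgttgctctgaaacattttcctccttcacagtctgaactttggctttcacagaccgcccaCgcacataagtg
Bcl2a1d: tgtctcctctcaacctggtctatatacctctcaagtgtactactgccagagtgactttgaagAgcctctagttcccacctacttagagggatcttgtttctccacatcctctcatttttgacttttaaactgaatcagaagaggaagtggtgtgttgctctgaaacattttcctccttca
They lie at chr9:88956720-88956899 (plus strand) for Bcl2a1a, chr9:89199029-89199208 (plus strand) for Bcl2a1b and chr9:88731915-88732094 (minus strand) for Bcl2a1d. The Bcl2a1a and Bcl2a1b stretches aligned over 180 bases with 1 mismatch. Bcl2a1d aligned with each of them over 136 columns, with 1 mismatch and 6 bases missing from Bcl2a1d. The aligned part is shorter because the annotated start of Bcl2a1d lies farther upstream. Outside the aligned part, bases are in lower case.

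The transcripts are also alike. Aligned with unmatched ends left out, the GENCODE M21 transcripts of Bcl2a1a and Bcl2a1b were 98.2% identical with 15 mismatches over 817 bases. Bcl2a1a and Bcl2a1d were 98.8% identical with 10 mismatches over 819 of the 863 bases of Bcl2a1d. Bcl2a1b and Bcl2a1d were 99.1% identical with 7 mismatches over 817 bases. Of all 100-base stretches of the Bcl2a1a transcript, 43.5% also occurred in a transcript of another gene, against 56.8% for Bcl2a1b and 54.7% for Bcl2a1d. Those shares include Gm29094, a protein-coding gene model that overlaps Bcl2a1b on the same strand and had 0 counts in both libraries. The split of reads between the copies is therefore uncertain, and how reads matching several genes were counted is not stated in the labels or headers.

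**Figure D1:**
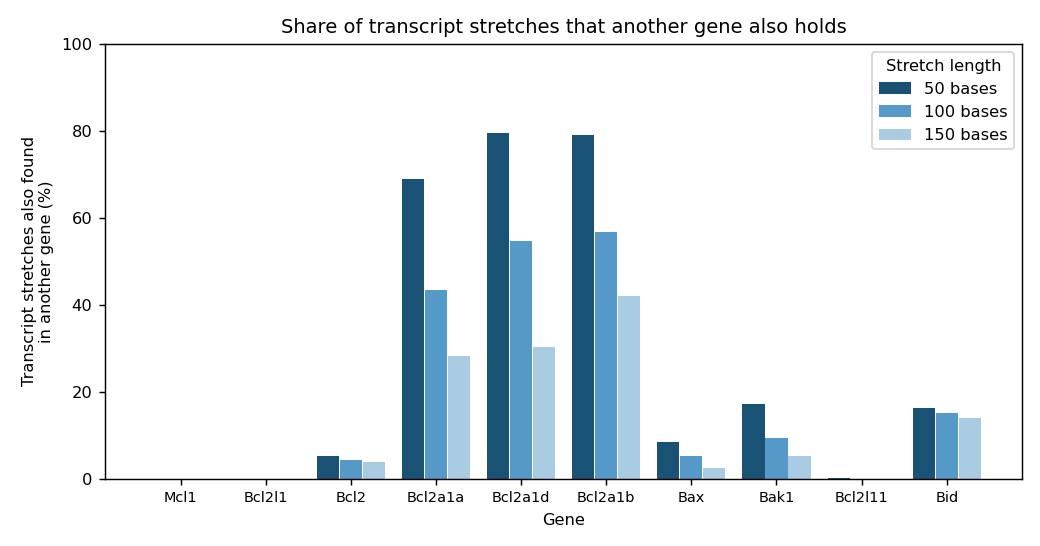
Bars give the percentage of 50-base, 100-base and 150-base stretches of each gene's annotated transcripts that also occur, on either strand, in a transcript of another gene. At 100 bases the 3 Bcl2a1 copies reach 43.5% to 56.8%, Bid 15.1%, and Mcl1 and Bcl2l1 0%.

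Bcl2a1a (ENSMUSG00000102037, chromosome 9, 88956900 to 88962419, GRCm38) had 503 counts, or 39.6 CPM, in the mrWNT2 library, against 304 counts, or 22.7 CPM, in the control library. It was 1.74-fold higher (1.51 to 2.01). Bcl2a1d (ENSMUSG00000099974, chromosome 9, 88723285 to 88731914) had 296 counts in the mrWNT2 library and 151 in the control library, a 2.06-fold ratio (1.69 to 2.52). All 3 copies had more counts in the mrWNT2 library, although that library was the smaller.

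Bcl2a1b (ENSMUSG00000089929, chromosome 9, 89199209 to 89207827) had 178 counts in the mrWNT2 library and 93 in the control library, a 2.01-fold ratio (1.56 to 2.62). The summed copies, whose total does not depend on how reads were split among them but does on whether shared reads were kept, held 977 counts in the mrWNT2 library and 548 in the control library. That sum was 1.87-fold higher (1.69 to 2.09). In none of the 3 pairs of copies did the ratio between copies differ between the libraries beyond counting error. The ratio of Bcl2a1a to Bcl2a1d counts was 1.70 in the mrWNT2 library and 2.01 in the control library, and the quotient of the 2 was 0.844 (0.657 to 1.08). The copies share sequence, so they are not 3 independent observations. Another annotated copy, Bcl2a1c, lies elsewhere on chromosome 9 and had 0 counts in both libraries.

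Mcl1 and Bcl2l1 were within 1.5-fold of their control levels. Mcl1 (ENSMUSG00000038612, chromosome 3, 95658788 to 95663176), the most abundant member, had 8344 counts (656 CPM) in the mrWNT2 library and 8558 counts (640 CPM) in the control library. Its ratio was 1.03, with an interval of 0.995 to 1.06 that bounds any difference between these libraries closely. Bcl2l1 (ENSMUSG00000007659, chromosome 2, 152780668 to 152831728), which encodes BCL-XL, had 1632 counts (128 CPM) in the mrWNT2 library and 1535 (115 CPM) in the control library, a 1.12-fold ratio (1.04 to 1.20).

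Bcl2 itself (ENSMUSG00000057329, chromosome 1, 106538178 to 106714274), the founding member of the family, was barely expressed. It had 53 counts (4.17 CPM) in the mrWNT2 library and 73 counts (5.46 CPM) in the control library. The ratio was 0.763 (0.526 to 1.10), so a difference was not detectable at this depth.

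Neither pore-forming effector differed beyond counting error. Bax (ENSMUSG00000003873, chromosome 7, 45461697 to 45466898) had 604 counts in the mrWNT2 library and 626 in the control library, a ratio of 1.01 (0.906 to 1.14). Bak1 (ENSMUSG00000057789, chromosome 17, 27019810 to 27029009) had 1005 counts in the mrWNT2 library and 1000 in the control library, a ratio of 1.06 (0.967 to 1.15). The count ratio of Bak1 to Bax was 1.66 in the mrWNT2 library and 1.60 in the control library, and the quotient of the 2 was 1.04 (0.901 to 1.20). Ggnbp1 spans Bak1 on the opposite strand and had 49 and 51 counts, few beside those of Bak1.

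Of the BH3-only members, Bid was lower and Bcl2l11 was not distinguishable from control. Bid (ENSMUSG00000004446, chromosome 6, 120891930 to 120916853), whose protein links death receptors and caspase-8 to the mitochondria, had 428 counts (33.7 CPM) in the mrWNT2 library and 560 counts (41.9 CPM) in the control library. It was 1.24-fold lower (1.10 to 1.41). Its annotated 913-base overlap with Bcl2l13, a gene on the opposite strand with 1692 counts in the mrWNT2 library and 1668 in the control library, means that some reads could belong to either gene unless strand was used.

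Bcl2l11 (ENSMUSG00000027381, chromosome 2, 128126038 to 128162547), which encodes BIM, had 529 counts (41.6 CPM) in the mrWNT2 library and 588 counts (44.0 CPM) in the control library, a ratio of 0.946 (0.840 to 1.07). Over the 10 members the interval lay above a ratio of 1 for 4, below it for 1 and included it for 5. Among all measured genes those shares were 21.0%, 18.8% and 60.2%.

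**Figure D2:**
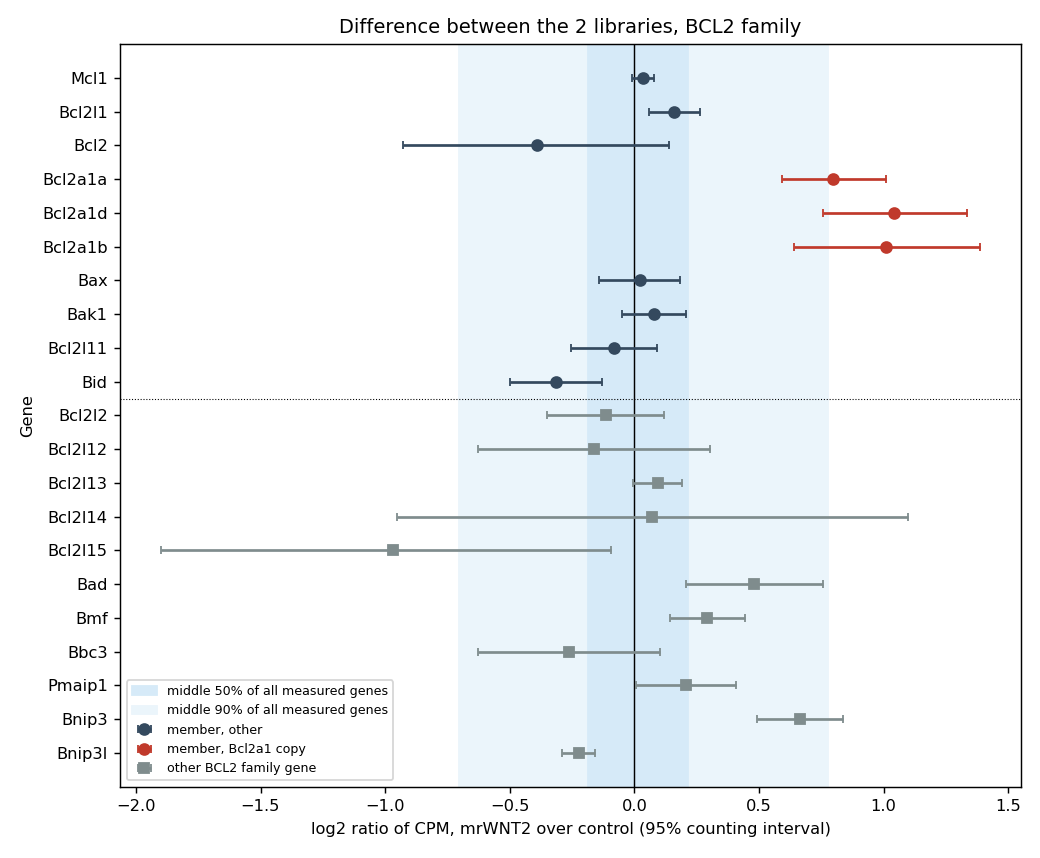
Points give each gene's log2 ratio of CPM, mrWNT2 over control, with its 95% counting interval, for the 10 members (circles) and the 11 other measured BCL2 family genes (squares); shaded bands hold the middle 50% and 90% of all measured genes. The 3 Bcl2a1 copies lie at 0.80 to 1.04, past the 95th percentile of all genes at 0.78, and the other members lie between -0.39 and 0.16.

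Levels of different genes were compared per gene length, using the authors' deposited FPKM. Mcl1 was the highest member, at 189.7 FPKM in the mrWNT2 library and 189.4 FPKM in the control library. In the mrWNT2 library Bcl2a1a came next at 47.7 FPKM, above Bak1 at 32.5, whereas in the control library Bcl2a1a, at 28.1 FPKM, was not separable by counting error from Bax at 30.1 or Bcl2l1 at 25.3. Bak1, Bax, Bcl2l1 and Bcl2a1d formed a run of neighbours in the mrWNT2 library, 32.5 to 26.7 FPKM, in which no adjacent pair differed beyond counting error.

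The low end had the same order in both libraries for 2 genes. Bcl2l11 stood at 5.12 FPKM in the mrWNT2 library and 5.54 in the control library. Bcl2 was lowest, at 0.450 FPKM in the mrWNT2 library and 0.603 in the control library. Bid stood at 9.37 FPKM in the mrWNT2 library and 11.9 in the control library, and Bcl2a1b at 16.9 and 8.61. By these values Bid was below Bcl2a1b in the mrWNT2 library and above it in the control library. Both share sequence with other genes, so their levels also depend on how shared reads were counted.

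**Figure D3:**
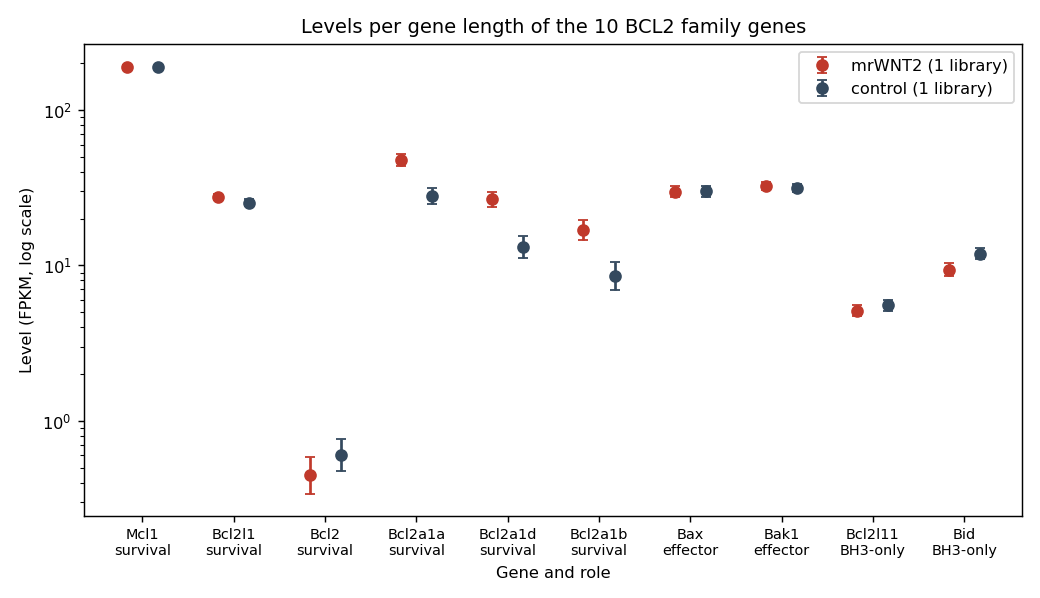
Points give each member's level in FPKM on a log axis in the mrWNT2 library (red) and the control library (dark blue), with 95% counting intervals, 1 library each. Mcl1 is level at 189.7 and 189.4 FPKM, the 3 Bcl2a1 copies sit higher in the mrWNT2 library, and Bcl2 is under 1 FPKM in both.

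The make-up of the survival pool differed between the libraries. Summed over the 6 survival members, levels came to 309 FPKM in the mrWNT2 library and 265 FPKM in the control library, a difference of 43.9 FPKM, of which the Bcl2a1 copies made up 41.4. Mcl1 supplied 61.4% of the sum in the mrWNT2 library and 71.4% in the control library. The Bcl2a1 copies supplied 29.5% in the mrWNT2 library and 18.8% in the control library, and Bcl2l1 8.95% and 9.55%.

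The 4 death members summed to 76.7 FPKM in the mrWNT2 library and 79.0 FPKM in the control library, with Bax and Bak1 holding 81.1% and 77.9% of it. Summed survival members stood at 4.03 times summed death members in the mrWNT2 library and 3.36 times in the control library. The quotient of the 2 was 1.20. Without the Bcl2a1 copies that quotient was 1.04, and without Mcl1 it was 1.62. These are RNA sums, which say nothing of protein amounts. Family genes outside the 10 members, described below, are in neither sum. Among them Bnip3 was at 24.0 FPKM in the mrWNT2 library and 15.5 in the control library, and Bad at 10.1 and 7.39. Bnip3l went the other way, at 68.3 and 81.6, as did the survival gene Bcl2l2, at 4.91 and 5.44. The quotient with such genes added was not computed. If reads matching several genes were not counted, the levels and shares of the Bcl2a1 copies are too low by an unknown amount.

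Pairs of genes were also compared within each library, since a ratio of 2 genes' counts does not depend on how the libraries are scaled. Of the 24 pairs of 1 survival and 1 death member, the ratio was higher in the mrWNT2 library, with an interval above 1, in 15, lower in 0, and had an interval that included 1 in 9. All 12 pairs with a Bcl2a1 copy were among the 15. The other 3 were Bcl2l1 over Bcl2l11 (1.18, 1.03 to 1.36), Bcl2l1 over Bid (1.39, 1.20 to 1.61) and Mcl1 over Bid (1.28, 1.12 to 1.46). The summed copies over Bid had the highest quotient among pairs with the sum on top and a death member below, with count ratios of 2.28 in the mrWNT2 library and 0.979 in the control library, a 2.33-fold quotient (1.97 to 2.76). Pairs share genes, so the counts of pairs are not independent, and the 12 with a Bcl2a1 copy repeat the higher level of the copies. Pairs of all measured genes were not counted for comparison. The 0 lower pairs hold only for the death members chosen. Outside the members, 6 BH3-only and BH3-like genes were measured. Their interval for mrWNT2 over control lay above 1 for 4 (Bad, Bmf, Pmaip1 and Bnip3) and below it for 1, Bnip3l. Pairs with these genes were not computed.

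Outside the 10 members, 11 of 15 other family genes were measured, 1 of them higher and 1 lower by 1.5-fold or more. Their median log2 ratio was 0.07. Bnip3, a BH3-like gene known for its part in mitophagy and its induction by hypoxia, had 699 counts in the mrWNT2 library and 464 in the control library, a 1.58-fold ratio (1.41 to 1.79). Bad, which encodes a BH3-only protein controlled by growth factor kinases, was 1.39-fold higher (1.15 to 1.69), with 260 counts in the mrWNT2 library and 196 in the control library. Bmf, whose protein is released from the cytoskeleton, was 1.23-fold higher (1.10 to 1.36).

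The p53-induced BH3-only genes differed little. Pmaip1 (NOXA), whose protein binds MCL1 and A1, had 432 counts in the mrWNT2 library and 393 in the control library, a 1.16-fold ratio (1.01 to 1.33). Bbc3 (PUMA) had 115 and 145 counts, with an interval that included 1. Bnip3l, a relative of Bnip3, had 3390 counts in the mrWNT2 library and 4162 in the control library and was 1.17-fold lower (1.12 to 1.22).

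Bcl2l2, which encodes the survival protein BCL-W, had 282 counts in the mrWNT2 library and 321 in the control library, with a ratio of 0.924 (0.784 to 1.09). Bcl2l13, a mitochondrial member linked to mitophagy, and the weakly expressed Bcl2l12 and Bcl2l14 also had intervals that included 1. Bcl2l15 was 1.96-fold lower from 17 counts in the mrWNT2 library and 35 in the control library (1.07 to 3.73). Bok and Bik had at most 1 count in either library, and Bcl2l10 and Hrk had 0 in both.

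Genes around the family were followed in lists of known regulators and effectors. Among the NF-kB survival targets outside the family, a list to which the Bcl2a1 genes would belong by regulation, 4 of 10 were higher by 1.5-fold or more, 0 were lower and 6 lay between, with a median log2 ratio of 0.48. Sod2 was 3.71-fold higher (3.47 to 3.97), with 4024 counts in the mrWNT2 library and 1140 in the control library. Tnfaip3, which encodes the NF-kB feedback inhibitor A20, was 3.33-fold higher (3.14 to 3.53). Traf1, which encodes an adaptor of TNF receptors, had 1308 and 800 counts and was 1.72-fold higher (1.57 to 1.88). The summed Bcl2a1 copies were 1.87-fold higher. Sod2, Tnfaip3 and Traf1 had the largest ratios of the list, while the intervals of Birc2, Traf2 and Gadd45b included 1. For this list and those below, 7.62% of all measured genes lay past the higher fold and 7.02% past the lower. Whether NF-kB had a part in the higher Bcl2a1 levels was not tested.

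Death receptor genes included several that were higher and 1, Tnfrsf1a, with an interval below a ratio of 1. Of 9 measured receptors, ligands and adaptors, 4 were at least 1.5-fold higher and 0 lower, with a median log2 ratio of 0.40. Fas, which encodes the receptor for Fas ligand, had 737 counts in the mrWNT2 library and 396 in the control library, a 1.96-fold ratio (1.73 to 2.22). Tnf was 1.93-fold higher (1.75 to 2.12) and the receptor gene Tnfrsf1b 1.93-fold (1.84 to 2.02). The remaining one of the 4, Tnfrsf10b, had 98 and 64 counts, and Fasl had 0 in both libraries. Tnfrsf1a, which encodes the TNF receptor with a death domain, had 2360 counts in the mrWNT2 library and 3005 in the control library and was 1.21-fold lower (1.15 to 1.28). Cflar, which encodes the caspase-8 inhibitor c-FLIP, was 1.32-fold higher (1.24 to 1.40).

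Downstream of the mitochondria differences were small. All 8 apoptosome and caspase genes were within 1.5-fold, with a median log2 ratio of 0.01. Cycs, the cytochrome c gene, had 783 counts in the mrWNT2 library and 609 in the control library and was 1.35-fold higher (1.21 to 1.51).

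Among 10 inhibitor of apoptosis genes and their antagonists, 1 was at least 1.5-fold higher and 0 lower, with a median log2 ratio of 0.09. Birc3, which encodes cIAP2 and is itself an NF-kB target, was 1.55-fold higher (1.46 to 1.65). Naip2 was 1.30-fold higher (1.24 to 1.37), and the interval of the antagonist gene Htra2 included 1. The 6 outer membrane channel and import genes were all within 1.5-fold, with a median of 0.19, among them Vdac1 at 1.17-fold, Mtch2, whose protein serves as a docking site for truncated BID, at 1.17-fold (1.07 to 1.29), and Tomm20 at 1.15-fold (1.04 to 1.28).

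Most known controllers of individual members were within 1.5-fold of their control levels. All 4 measured genes of MCL1 protein turnover were within 1.5-fold (median log2 ratio -0.02), and the intervals of the ubiquitin ligase genes Fbxw7 and Btrc and of the deubiquitinase gene Usp9x included 1. Of 8 regulators of BIM and BID, 1 was at least 1.5-fold lower and 0 higher (median -0.05). That gene, Gzmb, had 14 counts in the mrWNT2 library and 26 in the control library, with an interval that included 1. Foxo3, which encodes a transcription factor that induces the BIM gene, was 1.16-fold lower (1.08 to 1.26), the cathepsin gene Ctsb 1.15-fold lower (1.13 to 1.17), and the interval of Ddit3 included 1. Of the 8 regulators, the interval lay above a ratio of 1 for 3 and below it for 2. The 3 were Foxo1 at 1.31-fold (1.02 to 1.69), Dynll1 at 1.10-fold (1.01 to 1.20) and Ctsd at 1.08-fold (1.06 to 1.10). Of 11 p53 pathway genes, 1, Tnfrsf10b, was at least 1.5-fold higher and 0 lower (median 0.05). Cdkn1a was 1.28-fold higher (1.19 to 1.38), Zmat3 1.24-fold higher (1.04 to 1.48) and Sesn2 1.36-fold lower, with 699 counts in the mrWNT2 library and 1001 in the control library.

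Survival cytokine receptors and transducers had a median of -0.01, with 1 of 13 genes at least 1.5-fold higher and 0 lower. Csf1r, the receptor gene for macrophage colony-stimulating factor, had 4405 counts in the mrWNT2 library and 1954 in the control library, a 2.37-fold ratio (2.25 to 2.50). Pim1, which encodes a survival kinase, was 1.30-fold higher (1.23 to 1.37), and Il3ra 1.32-fold higher (1.05 to 1.66). Over the 13 genes the interval lay above a ratio of 1 for 4 and below it for 3. The 3 were Csf2ra, 1.17-fold lower (1.12 to 1.23), Akt2, 1.14-fold lower (1.07 to 1.22), and Stat5b, 1.09-fold lower (1.01 to 1.18). Over the 84 measured genes of all these lists, each counted once, 10 were at least 1.5-fold higher and 2, Gzmb and Bcl2l15, lower, against 7.62% and 7.02% of all measured genes, and their median was 0.06.

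**Figure D4:**
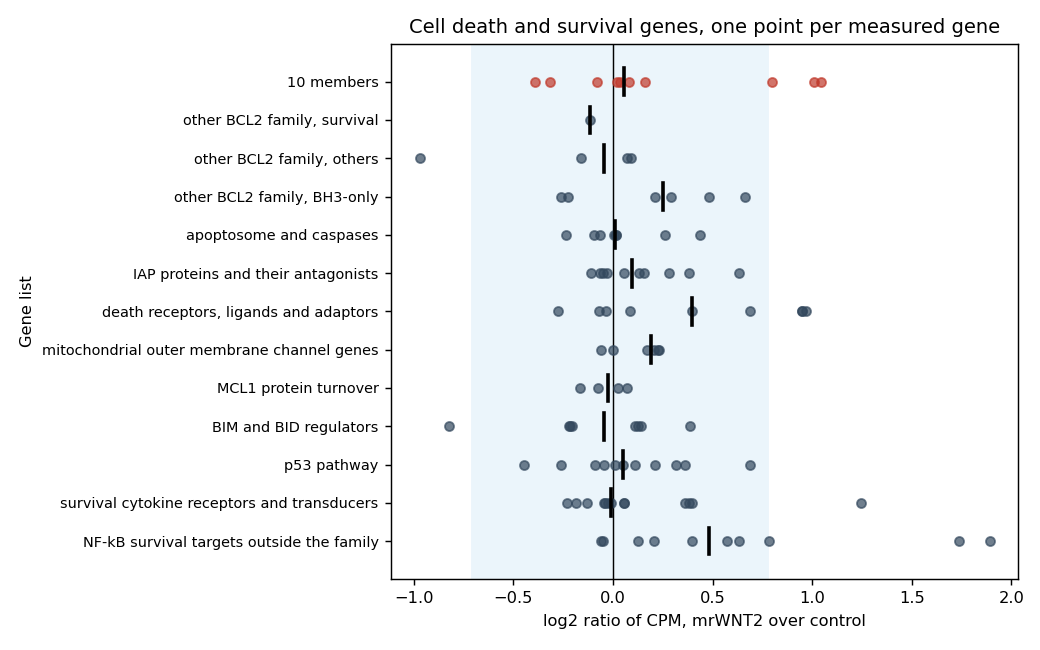
Each point is 1 measured gene, placed by its log2 ratio of CPM, mrWNT2 over control; black ticks are list medians and the shaded band holds the middle 90% of all measured genes. The highest list median is that of the NF-kB survival targets at 0.48, followed by the death receptors at 0.40.

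RNA of myeloid marker genes also differed between the libraries, in both directions among the macrophage and the monocyte markers. Of 9 macrophage markers, 7 were at least 1.5-fold lower and 1, Adgre1, higher, and they summed to 1193 CPM in the mrWNT2 library and 1917 CPM in the control library. Of 9 neutrophil markers, 4 (Ly6g, Mmp9, Ltf and Retnlg) were at least 1.5-fold lower and 0 higher, with sums of 33213 and 43136 CPM. Of 5 monocyte markers, 2 (Csf1r and Cd14) were at least 1.5-fold higher and 0 lower, with sums of 2672 and 2396 CPM. Of the other 3 monocyte markers, Ccr2 was 1.24-fold lower (1.05 to 1.47), Ly6c2 was 1.06-fold lower (1.02 to 1.09) and the interval of F13a1 included 1. The median log2 ratio of the 5 was -0.0011. Of the 8 MDSC and myeloid markers 1, Ly6g, was at least 1.5-fold lower, with sums of 38103 and 45316 CPM. The part of these differences in the higher Bcl2a1 and lower Bid levels was not tested.

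Markers of other cell types were at lower levels. Of 7 T and NK cell markers 1 was measured (21.6 CPM summed in the mrWNT2 library, 21.5 in the control library; Ncr1 was at 0 in both), and of 5 B cell markers 2 were (4.25 and 4.64 CPM; Pax5 was at 0 in both). Dendritic cell markers summed to 27.4 CPM in the mrWNT2 library and 32.2 in the control library, with 2 of 6 measured and Siglech at 0 in both. Basophil and mast cell markers summed to 129 and 164 CPM, with 1 of 5, Kit, at least 1.5-fold lower (2.15-fold, from 213 counts in the mrWNT2 library and 481 in the control library). Cpa3, a mast cell protease gene, was 1.34-fold lower (1.21 to 1.49). Stromal and endothelial markers summed to 57.3 and 63.0 CPM, with 2 of 5 measured genes, Col1a1 and Col1a2, at least 1.5-fold lower.

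The RefSeq promoter windows of the members, 250 bases before to 50 bases after each annotated start, were searched on both strands for 3 motifs. The ETS and PU.1 core GAGGAAGT was in the windows of Bcl2a1a, Bcl2a1b, Bcl2a1d and Bak1, against 3.20% of 32851 windows in all. A loose form of the AP-1 motif, TGANTCA, in which N allows any base, was in those of the 3 Bcl2a1 copies, against 7.81% of all windows. In the 3 stretches printed above the match has A at that base, and a stricter form was not searched. The NF-kB consensus was found in 1 of 3 windows of Bcl2l1 and in no window of the other 9 members, against 4.51% of all windows. The 3 Bcl2a1 windows are copies of one another, and these matches describe letters in the windows and not binding.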

How the data were processed

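Per the labels' protocols, RNA was isolated with TRIzol and made into libraries with a NEBNext Ultra RNA kit. Build GRCm38 (mm10) is named in the submitters' processing notes, as are HISAT2 (2.0.5), fastp, CASAVA (1.8), DESeq2 (1.20.0) and featureCounts (1.5.0-p3). Strand setting and the treatment of reads that match several genes are not given in the sources used here. Raw gene counts and FPKM (scaled to gene length and library size) were deposited as separate tables of 54751 gene rows. The library sizes implied by the FPKM matched those from DESeq2 size factors and not the total counts.

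Counts were scaled with TMM factors (1.01 for mrWNT2, 0.992 for control; edgeR 4.0.16) to CPM, and a gene counted as measured when its CPM averaged 1 or more. With 1 library per group no test was run. Intervals are exact, Clopper-Pearson or, for quotients of 2 genes' ratios, conditional (SciPy 1.17.1). They cover counting error only, as each group had 1 library. The Clopper-Pearson ones were run on counts simulated with counting error alone, which checks the code and not other sources of error. Reads carry no molecular identifiers, which the intervals do not allow for. A count of 0 allows up to 0.236 CPM (mrWNT2) or 0.224 CPM (control), at 3 counts. Transcripts came from GENCODE M21 and promoters from RefSeq (GRCm38.p6).

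Members and gene lists were chosen with earlier results of these data known. Genes named are all members, other BCL2 family genes, up to 3 genes a list with the largest ratio and a mean of at least 10 CPM, and genes overlapping a member. Fasl, Gzmb, Tnfrsf10b, Tnfrsf1a, Cflar, Bcl2a1c, Birc2, Traf2, Gadd45b, Foxo1, Dynll1, Ctsd, Csf2ra, Akt2, Stat5b and single markers were named after their values were seen.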

Additional observations from a re-analysis of the deposited data

How the results depend on the processing

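Across 5 alternatives for each member (DESeq2 size factors, total counts, totals without the 50 most abundant genes, deposited FPKM and a pseudocount of 1 CPM), all 50 log2 ratios stayed within the counting interval of the reported value. Bax, at 0.02, ranged from -0.01 to 0.04, so its sign depends on the scaling. Bcl2a1a ranged from 0.77 to 0.82, Bcl2a1b from 0.91 to 1.03 and Bcl2a1d from 0.98 to 1.07. The deposited FPKM gave the same ratios as DESeq2 size factors, so they are not separate alternatives. Each scaling moved all genes by a common shift, from -0.03 to 0.02 on the log2 scale. That is less than any member's counting interval allows, so for the scalings the agreement could not have failed. At a fold of 5 to 4 instead of 1.5, 1 member was lower, and with the Bcl2a1 copies summed 1 was higher instead of 3. Of all genes, 980 were at least 1.5-fold higher and 902 lower. Those counts were 2532 and 2675 with no filter, 352 and 252 at a mean of at least 10 CPM, 2171 and 1920 at a fold of 5 to 4, and 435 and 320 at a fold of 2, as fewer or more genes qualify by construction. The quotient of summed survival over summed death members, 1.20, was 1.62 without Mcl1 and 1.04 without the Bcl2a1 copies, both chosen after seeing the data. No paired analysis was possible because each group had 1 library, and no replicate could be left out. Among the members depth limits Bcl2 most, with 53 and 73 counts. Bcl2l12, Bcl2l14, Bcl2l15, Gzmb and Tnfrsf10b also had under 100 counts in each library.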

Other observations

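The Bcl2a1 copies lie within 485 kb of chromosome 9, and 20 other gene rows of the deposited table fall in that span, 3 of them with a mean of at least 1 CPM. None of these was higher by 1.5-fold in the mrWNT2 library. Trim43c had 15 counts in the mrWNT2 library and 19 in the control library, and the non-coding 9330159M07Rik had 66 and 67. Gm2396, a non-coding transcript upstream of Bcl2a1a, had 16 counts in the mrWNT2 library and 48 in the control library, a ratio of 0.351 (0.186 to 0.628). These genes were looked up after the Bcl2a1 values were seen.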
